A study of Mus musculus with 6 samples.

Results

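The genes described here make, break down, bind and sense retinoic acid, the active derivative of vitamin A: the retinaldehyde dehydrogenases *Aldh1a1*, *Aldh1a2* and *Aldh1a3*, the degrading enzymes *Cyp26a1*, *Cyp26b1* and *Cyp26c1*, the cytosolic carrier *Crabp1*, and the nuclear receptors *Rara*, *Rarb* and *Rarg*. They were taken as every probe set that the platform's annotation assigns to 1 of these 10 symbols and to no other. This gave 12 of the 45037 probe sets tested, for 9 of the 10 genes, with 3 probe sets for *Aldh1a3* and 2 for *Rarg*. *Cyp26c1*, the direct neighbor of *Cyp26a1* in the genome, had no probe set of its own symbol and was not analysed here.

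Expression was measured on Affymetrix A430 arrays in dorsal midbrain at embryonic day 10.5 from 3 *Ezh2* cko and 3 control samples on a C57BL/6 background, with 1 array per sample. The *Ezh2* cko embryos were Wnt1-Cre+ and carried 2 copies of the Ezh2[SET]lox allele, from which Cre removes the part encoding the methyltransferase domain. By the methods, controls either carried both floxed alleles without Cre or carried Cre with 1 floxed and 1 wild-type allele, so that some controls shared each of these elements. The labels give all controls as WT and do not tell the 2 kinds apart. Wnt1-Cre is also active in the neural crest, and by the study's stainings recombination in the rostral part of the dorsal midbrain is incomplete. Each group came from 2 litters, which the labels do not assign to samples.

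Retinoic acid is made from retinol by way of retinaldehyde, and the last step is carried out by the Aldh1a enzymes. Cyp26 enzymes oxidize it to products that are cleared, so that the position of synthesis and breakdown shapes where the signal acts. Inside the cell it is carried by Crabp proteins, and in the nucleus it binds RAR proteins, which sit on DNA together with RXR partners. In the embryonic nervous system retinoic acid is best known for patterning the hindbrain and spinal cord. Receptor complexes bind a pair of short motifs in direct repeat, and 2 of the genes here, *Rarb* and *Cyp26a1*, are classical targets that carry such an element close to their start.

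These elements are shown because they are the sequences through which both genes are known to respond. The promoters of the RefSeq table (GRCm38.p6), 250 bases before to 50 after each start, were searched on both strands for a pair of motifs in direct repeat, each AGGTCA with A or G as the first and G or T as the third letter, with a spacer of 5 bases (DR5) or 2 bases (DR2). Promoters were found for 9 of the 10 genes, with 14 in all, and those of *Aldh1a3* were not used here. A DR5 was found in *Rarb* and *Cyp26a1*, a DR2 in none of the 9, and among all 32851 promoters 0.0974% held a DR5 and 0.268% a DR2. A match is a description of letters and does not show that a receptor binds. The *Rarb* element lies 53 to 37 bases before the start on the minus strand of chromosome 14, and the *Cyp26a1* element lies 32 to 16 bases before the start on the plus strand of chromosome 19 and reads on the opposite strand. Capitals mark the repeat with its spacer, in the direction of transcription.
Rarb, chr14:16575506-16575535: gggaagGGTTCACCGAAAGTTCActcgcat
Cyp26a1, chr19:37697770-37697799: taaagaTGAACTTTGGGTGAACTaatttgt

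The third sequence is that of *Cyp26b1*, shown because this gene had the widest difference between the groups. It covers the 152 bases before the first annotated start, on the minus strand of chromosome 6, with a TATAAA in capitals 41 to 36 bases before that start. Counted from the start in the promoter table, which was used for the other searches and lies further downstream, it is 139 to 134 bases away. TATAAA was searched only in the direction of transcription, in which 8.32% of the promoters in the table hold it. No DR5 or DR2 was found in the promoter window of *Cyp26b1*.
Cyp26b1, chr6:84593909-84594060: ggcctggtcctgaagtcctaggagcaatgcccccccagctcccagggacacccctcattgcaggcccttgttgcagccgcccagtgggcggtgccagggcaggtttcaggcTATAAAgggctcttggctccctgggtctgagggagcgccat

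None of the 12 probe sets passed the threshold for a called change in the *Ezh2* cko midbrain. Values are log2 signals made with RMA, where no value stands for an absent transcript and brightness depends on the probes, so that each probe set is compared with itself across arrays. A change was called at a Benjamini-Hochberg adjusted p under 0.05 from limma over all probe sets, and adjusted p-values of the 12 ranged from 0.504 to 0.985. Over all probe sets, 0.184% were higher and 0.00444% lower in the *Ezh2* cko at this threshold. The methods ask for 1.75-fold or more at an unadjusted p no higher than 0.01, and with limma's p in that place again 0 of the 12 were called, against 0.24% of all probe sets higher and 0.02% lower. The test behind the p of the methods is not named for the arrays, so these counts are not those of the study's own list. At an unadjusted p under 0.05, 2 were higher, *Cyp26b1* and *Aldh1a2*, and none was lower, against 4.49% and 3.06% of all probe sets, or 7.55% in either direction. By the unpaired test named in the methods, 0 were past the adjusted p and 1, *Aldh1a2*, had an unadjusted p under 0.05. Of the 12 differences, 5 were positive, beside 43.1% over all probe sets, and their median was -0.03 on the log2 scale, beside -0.02 over all probe sets.

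The arrays were alike as a whole, with medians of 5.68 to 5.72 and correlations between arrays of 0.993 to 0.997 over all probe sets. The *Ezh2* probe set was at 11.75 ± 0.04 in the *Ezh2* cko and 11.70 ± 0.05 in controls (SD, n = 3 each, limma adjusted p = 0.918). The tables used do not place it inside or outside the deleted part, so it does not check the deletion. Of 13 genes of the midbrain and isthmus, 10 had a positive difference, with a median of 0.17, and none passed the adjusted p. The negative differences were -0.12 for *Barhl1* and -0.04 for *Fgf8* and for *Otx1*. *En1*, which encodes a homeodomain protein of the midbrain and hindbrain border, was at 8.38 to 8.77 in the *Ezh2* cko, against 7.98 to 8.29 in controls (adjusted p = 0.52). Its relative *En2* was at 12.42 to 12.63 in the *Ezh2* cko, against 12.29 to 12.41 in controls (adjusted p = 0.712). Of all probe sets, 5.72% were likewise higher in the *Ezh2* cko with no overlap. *Wnt1*, which encodes a secreted signal of this border, was the gene of the 13 past the threshold of the methods by limma's p, with a log2 difference of 0.90 (adjusted p = 0.0712).

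*Cyp26b1*, which encodes a retinoic acid hydroxylase known from the hindbrain and limb bud of mouse embryos, had a higher mean in *Ezh2* cko midbrain, with a wide spread. Its log2 signal was 6.71, 7.69 and 8.17 in *Ezh2* cko replicates 1, 2 and 3, against 6.23, 6.60 and 6.99 in control replicates 1, 2 and 3. The groups overlapped, since *Ezh2* cko replicate 1 lay below control replicate 3, and the other 2 *Ezh2* cko arrays lay above every control. The means were 7.52 ± 0.74 in the *Ezh2* cko and 6.61 ± 0.38 in controls (SD, n = 3 each), a 1.88-fold difference. The log2 difference was 0.91, with a standard error of 0.34 and a 95% interval of 0.14 to 1.68, and it did not pass the test (limma unadjusted p = 0.0256, adjusted p = 0.572). Its mean fold was above that of the methods, which 0.278% of all probe sets reached on the higher side without regard to p, and its limma p was above 0.01. Without *Ezh2* cko replicate 1 the log2 difference was 1.32 and met the threshold of the methods (unadjusted p = 0.000477, adjusted p = 0.155), and without *Ezh2* cko replicate 3 it was 0.59 (adjusted p = 0.861).

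The signal of *Cyp26b1* moved with that of neuron markers across the arrays. The mean of 14 neuron markers, such as *Tubb3* and *Dcx*, each set on the log2 scale against its own average across arrays, was -0.07, 0.18 and 0.42 in *Ezh2* cko replicates 1, 2 and 3 and -0.43, -0.07 and -0.03 in control replicates 1, 2 and 3. Within each group the arrays thus had the same order by neuron markers as by *Cyp26b1*. This order was not particular to neuron markers, since neural crest and neural progenitor markers, given below, had it too. Of these markers, 14 of 14 had a positive difference, 8 had an unadjusted p under 0.05, none passed the adjusted p, and their median was 0.36. When that mean was added to the model, which was decided with earlier results known, the log2 difference of *Cyp26b1* was 0.08 with a standard error of 0.20 (limma adjusted p = 0.998). That mean was itself higher on average in the *Ezh2* cko, so it overlaps with the group term. With so few arrays this model cannot tell them apart, and no other marker list was used in this way. The mean of 16 mesenchyme markers, such as *Prrx1* and *Pdgfra*, was 0.01, 0.10 and 0.21 in the *Ezh2* cko and -0.33, 0.03 and -0.03 in controls, with 13 of 16 differences positive, 7 higher and 1 lower at an unadjusted p under 0.05, none past the adjusted p and a median of 0.29. Of all probe sets, 4.49% were higher and 3.06% lower at an unadjusted p under 0.05 from limma. The part of the cell types of these lists in the result was not tested. In tissue such as this, more cells of a type and more RNA per cell cannot be told apart.

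**Figure D1:**
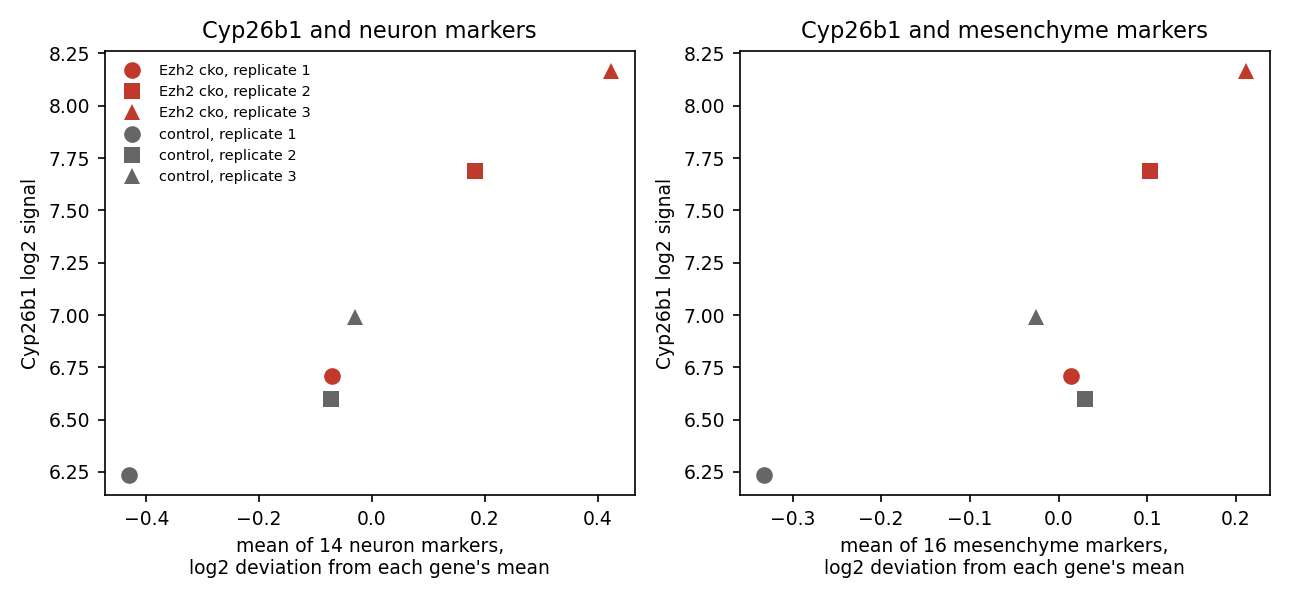
Log2 signal of *Cyp26b1* on each array (y axis) against the mean of 14 neuron markers (left) and of 16 mesenchyme markers (right), as log2 deviations (x axes), for 3 *Ezh2* cko (red) and 3 control (grey) arrays. The array with the highest *Cyp26b1* signal, *Ezh2* cko replicate 3 at 8.17, also has the highest mean of both marker lists. That with the lowest, control replicate 1 at 6.23, has the lowest mean of both. The means of neural crest, neural progenitor, macrophage, eye and optic, and retinoic acid response genes have the same highest and lowest arrays.

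*Cyp26a1*, the other degrading enzyme measured and itself a target of the receptors, had nearly equal signals in the groups. It was at 4.77, 4.95 and 4.82 in the *Ezh2* cko, against 4.95, 4.82 and 4.89 in controls. The 2 sets of arrays covered almost the same range. The log2 difference was -0.04, with a 95% interval of -0.23 to 0.15 (limma adjusted p = 0.947).

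Among the enzymes of synthesis, *Aldh1a2*, the main source of retinoic acid in the early mouse embryo and known from its mesoderm and mesenchyme, had the single probe set of the 12 whose groups did not overlap. Its log2 signal was 4.87, 4.65 and 4.80 in the *Ezh2* cko, against 4.52, 4.32 and 4.59 in controls. The lowest *Ezh2* cko array lay just above the highest control. The difference was 0.30 on the log2 scale, or 1.23-fold, with a standard error of 0.10 and a 95% interval of 0.07 to 0.52, and it did not pass the test (limma unadjusted p = 0.0159, adjusted p = 0.504). Of all probe sets, 5.72% were higher in the *Ezh2* cko with no overlap and 7.27% lower, so that 1 of 12 and 0 of 12 are near what the whole table gave. Across single arrays left out the log2 difference ranged from 0.22 to 0.36. It was 0.34 with the neuron marker mean as a term (adjusted p = 0.836). The mesenchyme markers, given above, were also higher on average in the *Ezh2* cko, with 13 of 16 differences positive. They were lowest on control replicate 1, and the lowest *Aldh1a2* signal was that of control replicate 2. Their part in this difference was not tested.

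*Aldh1a1*, which in the mouse marks the dorsal retina and progenitors of midbrain dopamine neurons, was at 3.72, 3.47 and 3.36 in the *Ezh2* cko, against 3.84, 3.60 and 3.72 in controls. The 2 lowest arrays were both *Ezh2* cko, and the third of these lay within the controls. The log2 difference was -0.20, with a 95% interval of -0.45 to 0.05 (limma adjusted p = 0.751). Of 12 genes of the ventral midbrain, such as *Foxa2* and *Lmx1a*, 3 had a positive difference at the probe set of highest mean, and the median was -0.08. *Sim1* was at -0.08 by that probe set and at 0.87 by its other one (limma unadjusted p = 0.00157, adjusted p = 0.205). Of these 12, *Foxa1*, a forkhead gene known from the floor plate, rose by 1.23 on the log2 scale (adjusted p = 0.00628).

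*Aldh1a3*, known from the ventral retina and the olfactory region, was read by 3 probe sets that all gave small negative differences. The one with the highest mean was at 4.91, 4.75 and 5.04 in the *Ezh2* cko, against 4.99, 4.99 and 4.82 in controls. The groups overlapped at each of the 3 sets, and the log2 differences were -0.03, -0.13 and -0.14, with 95% intervals that together span -0.43 to 0.19. The lowest adjusted p of the 3 was 0.825. The *Aldh1a3* result stands beside a list of eye and optic genes, such as *Rax* and *Vax2*, chosen with earlier results of these data known. Of these, 8 of 10 had positive differences, beside 43.1% of all probe sets, with a median of 0.41. At an unadjusted p under 0.05 from limma, 6 were higher and none was lower, beside 4.49% and 3.06% of all probe sets. Past the adjusted p was 1, *Vax2*, which rose by 0.84 on the log2 scale (adjusted p = 0.00933), beside 0.184% of all probe sets.

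*Crabp1*, which encodes a carrier that is abundant in the neural crest and hindbrain of mouse embryos, was slightly higher on average in the *Ezh2* cko. It was at 13.92, 13.98 and 13.99 in the *Ezh2* cko, against 13.64, 13.94 and 13.76 in controls. The *Ezh2* cko arrays lay close together, and 1 of them lay below the highest control. The log2 difference was 0.19, with a 95% interval of -0.02 to 0.40 (limma adjusted p = 0.712). These values lie toward the upper end of the values on the arrays, which reach 14.74, and whether the signal was near saturation was not tested. The mean of 9 neural crest markers was -0.03, 0.07 and 0.30 in the *Ezh2* cko and -0.19, -0.10 and -0.05 in controls. Of their differences, 8 of 9 were positive, the median was 0.11, and none passed the adjusted p. At an unadjusted p under 0.05 from limma, 4 were higher and none was lower, beside 4.49% and 3.06% of all probe sets. The differences were uneven, with 0.55 for *Tfap2a*, 0.47 for *Ednrb*, 0.45 for *Snai2* and 0.43 for *Tfap2b*. Those of *Foxd3* and *Sox10* were 0.002 and -0.06. Their part in the difference of *Crabp1* was not tested.

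The receptors differed little. *Rarb*, whose own promoter carries the repeat printed above, was at 6.86, 6.81 and 6.97 in the *Ezh2* cko, against 6.84, 6.61 and 6.87 in controls. Control replicate 2 was the lowest and the other 5 arrays lay close together, so that the groups overlapped. The log2 difference was 0.11, with a 95% interval of -0.11 to 0.33 (limma adjusted p = 0.849). *Rara* was at 6.24, 6.38 and 6.26 in the *Ezh2* cko, against 6.53, 6.36 and 6.33 in controls, a log2 difference of -0.11 with a 95% interval of -0.31 to 0.08 (adjusted p = 0.822). Its lowest 2 arrays were *Ezh2* cko, and the third lay within the controls. The 2 probe sets of *Rarg* gave differences of -0.03 and 0.01. The brighter of them was at 7.13, 7.12 and 7.20 in the *Ezh2* cko, against 7.08, 7.34 and 7.12 in controls. Here the *Ezh2* cko arrays lay inside the range of the controls.

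**Figure D2:**
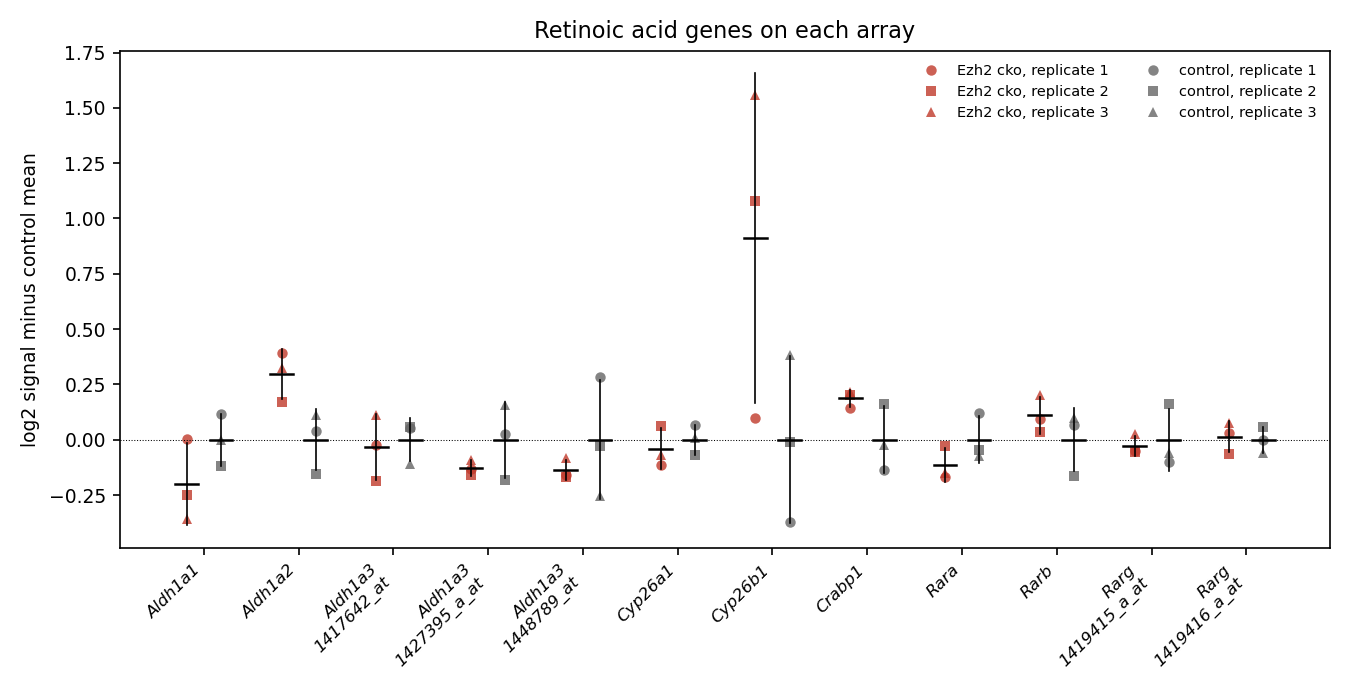
Log2 signal of the 12 probe sets (x axis), each after subtraction of its mean over controls (y axis), on each of 3 *Ezh2* cko (red) and 3 control (grey) arrays, with the mean and SD of each group as black lines. The *Ezh2* cko arrays of *Cyp26b1* spread over more than those of any other set shown, and *Aldh1a2* is the set whose groups do not overlap.

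The intervals bound how large a change these arrays leave room for. For 11 of the 12 probe sets the 95% interval lay inside a 1.75-fold change either way, which is 0.81 on the log2 scale, and the bounds reached from -0.45 to 0.52. That of *Cyp26b1* reached past it. Of the 12 probe sets, 7 had a mean signal below 5.70, the median of all probe sets, namely those of *Cyp26a1*, *Aldh1a1*, *Aldh1a2* and *Aldh1a3* and the dimmer one of *Rarg*. Signals this low can understate a change in the transcript, so these intervals hold for the signal and not for the transcript.

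**Figure D3:**
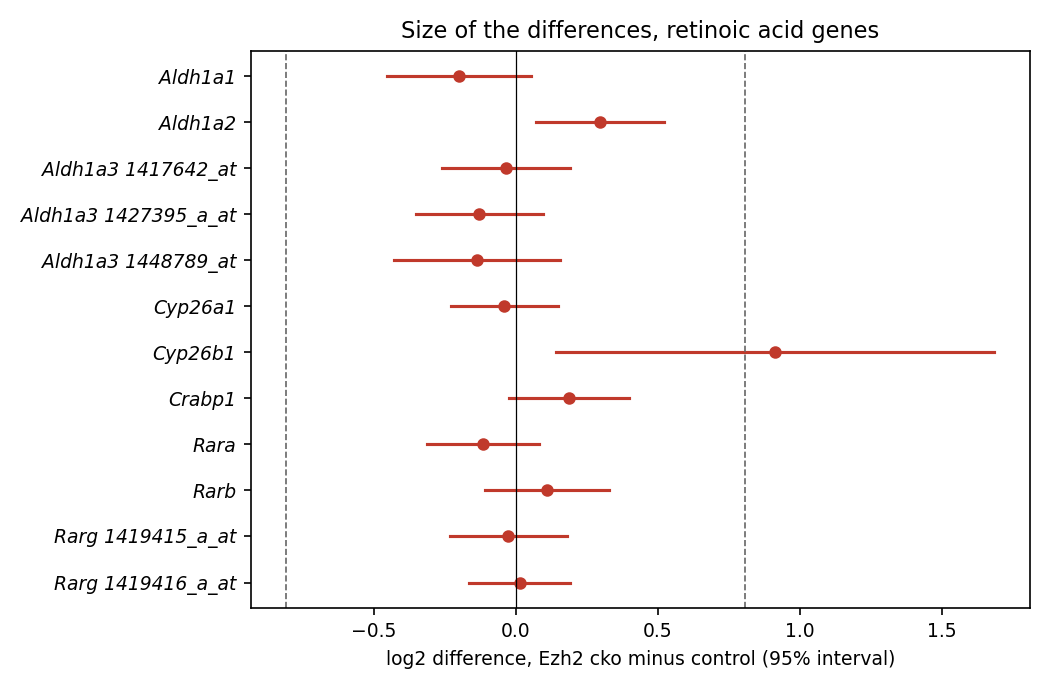
Log2 difference, *Ezh2* cko minus control (x axis), of the 12 probe sets (y axis), with 95% intervals from limma as lines and dashed lines at the 1.75-fold change of the methods. All intervals except those of *Cyp26b1* and *Aldh1a2* include 0, and that of *Cyp26b1*, from 0.14 to 1.68, is the one that crosses a dashed line.

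Other genes of the pathway also showed no called change. Of 30 genes for retinol transport and oxidation, carriers, RXR partners and cofactors, 26 had a probe set, and none was called as changed. From 1 probe set per gene, 13 had a positive difference, with a median of 0.00 (0.0035 before rounding). At an unadjusted p under 0.05 from limma, 2 of the 26 were higher and 3 lower, beside 4.49% and 3.06% of all probe sets. *Rdh11*, which encodes a retinal reductase, was at 8.94, 9.39 and 8.51 in the *Ezh2* cko, against 8.19, 8.01 and 8.57 in controls. Its groups overlapped by 1 array on each side, and the log2 difference was 0.69 (adjusted p = 0.459) and 0.48 at its other probe set. *Rbp4*, which encodes the carrier of retinol in blood, was at 7.77, 7.77 and 7.58 in the *Ezh2* cko, against 7.34, 7.39 and 6.65 in controls, with no overlap and a difference of 0.58 (adjusted p = 0.46).

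2 intracellular carriers were lower on average. *Crabp2*, which hands retinoic acid to the receptors, was at 12.15, 12.19 and 12.02 in the *Ezh2* cko, against 12.39, 12.67 and 12.35 in controls. Its groups did not overlap, and the log2 difference was -0.35 (limma unadjusted p = 0.00927, adjusted p = 0.418), while that of *Crabp1* was 0.19. *Rbp2*, a retinol carrier known from the intestine, had a difference of -0.31 (adjusted p = 0.391). The receptors' partners *Rxra*, *Rxrb* and *Rxrg* had differences of -0.10, -0.01 and 0.05 at the probe set with the highest mean, and *Rdh10*, which makes retinaldehyde in the embryo, of 0.20 (adjusted p = 0.82) and of 0.26 at its other probe set (adjusted p = 0.559).

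Among 20 genes known to respond to retinoic acid in other tissues, 17 had a probe set. None was called as changed, 12 had a positive difference, and the median was 0.07. At an unadjusted p under 0.05 from limma, 3 of the 17 were higher and none was lower, beside 4.49% and 3.06% of all probe sets. *Meis1*, which encodes a cofactor of Hox proteins, was at 9.23, 9.15 and 9.28 in the *Ezh2* cko, against 8.88, 8.86 and 8.82 in controls. The groups were well apart, with a log2 difference of 0.37 (adjusted p = 0.162), and its other probe sets gave 0.23 and -0.02. *Nr2f2*, which encodes the orphan receptor COUP-TFII, had a difference of 0.37 (adjusted p = 0.637) and, at its other probe sets, of -0.13 to 0.35. The difference was 0.32 for *Tshz1*, which encodes a zinc finger protein (adjusted p = 0.637). The second probe set of *Tshz1* gave 0.72 (unadjusted p = 0.00199, adjusted p = 0.226). *Hoxb4*, a Hox gene of the posterior hindbrain, had a difference of 0.30 (adjusted p = 0.722) and of 0.27 at its other probe set.

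**Figure D4:**
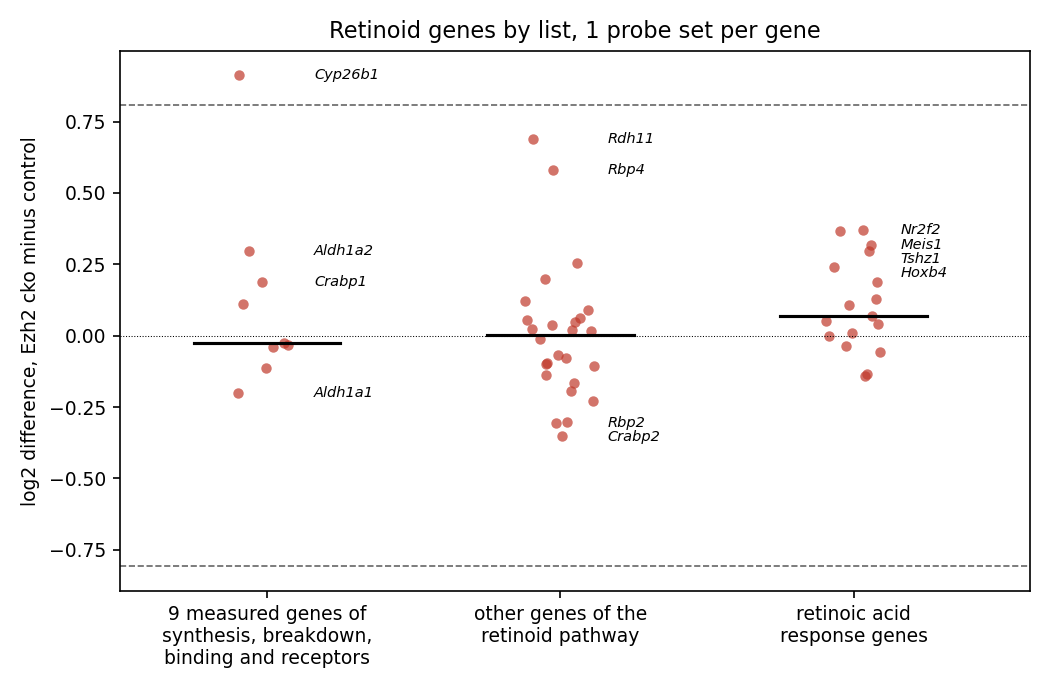
Log2 difference, *Ezh2* cko minus control (y axis), from 1 probe set per gene, for the 9 measured genes of synthesis, breakdown, binding and receptors, 26 other genes of the pathway and 17 response genes (x axis), with medians as black lines, the 4 widest differences of each list named and dashed lines at 1.75-fold. *Cyp26b1* is the one point beyond a dashed line, and the medians lie at -0.03, 0.00 and 0.07.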

How the data were processed

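The authors made log2 signals for each array with RMA and deposited them by probe set (background correction, quantile normalization and summary of the probes; the version is not given in the sources used here). Array signals carry no depth, and the number of arrays limits the precision. After 64 manufacturer control sets were left out, 45037 probe sets entered a linear model of the group alone in limma 3.58.1 (R 4.3.3, with eBayes), and p-values were adjusted over all of them with the Benjamini-Hochberg method. No array test is named in the methods. Symbols came from the platform's annotation, which gives 1 symbol for 34945 probe sets, several for 932 and none for 9160, updated through Entrez identifiers for the gene lists. Where a gene had several, that of highest mean stands for it and the rest are given too. All probe sets of the 10 genes are named, and from each of the 2 retinoid lists the 4 genes with the widest differences, as no gene in them passed a threshold. *Rdh10*, the RXR genes, the second probe set of *Tshz1* and the markers *Sim1*, *Sox10* and *Foxd3* were named after their values were seen. The other markers given with values, such as *En1*, *Wnt1*, *Foxa1*, *Vax2* and *Tfap2a*, were also not picked by a rule fixed in advance. The members and lists were chosen with earlier results of these data known. The procedure was tested on simulated data. Alternatives were the methods' unpaired test, other variance priors, weighting of arrays, removal of dim or possibly cross-hybridising probe sets, other normalizations, a replicate block, single arrays left out, other thresholds and, chosen after results of these data were known, the neuron marker mean as a term.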

Additional observations from a re-analysis of the deposited data

How the results depend on the processing

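No member passed the adjusted p under any alternative tried, including an adjusted p under 0.1. The count past the threshold of the methods, 0 with limma's p and all arrays, was 1 with the replicate block and 0 to 1 across single arrays left out, in both cases through *Cyp26b1*. The labels number the replicates of both groups alike, but deviations of same-numbered arrays correlated at 0.065, -0.20 and 0.063, and not every array correlated best with its own number, so the numbers were not taken as pairs. With the replicate block *Cyp26b1* had an unadjusted p = 0.000553 and an adjusted p = 0.12 from limma, and 59 probe sets in all passed the adjusted p, against 85 without it. Over the alternatives and single arrays left out, the adjusted p of *Cyp26b1* ranged from 0.12 to 0.998 and its log2 difference from 0.08, with the neuron marker mean as a term, to 1.32.

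Signs changed for some differences, among them that of *Aldh1a1*, one of the wider ones. With the neuron marker mean as a term, *Aldh1a1* went from -0.20 to 0.0139 and the dimmest probe set of *Aldh1a3* from -0.14 to 0.0139. With array weights the dimmer probe set of *Rarg* went from 0.01 to -0.0024. Across single arrays left out, *Aldh1a3* ranged from -0.11 to 0.043 (brightest probe set) and from -0.26 to 0.0038 (dimmest), and *Rarg* from -0.077 to 0.053 (brighter) and from -0.017 to 0.052 (dimmer). The other differences of members kept their direction. The filter on dim probe sets left 5 of the 12. Over all probe sets, the count past the adjusted p was 0 with the methods' unpaired test, 7 with the neuron term and 21 to 46 without single arrays, and the count past the threshold of the methods was 61 with the unpaired test, against 117. The causes were not tested.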

Other observations

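The spread of *Cyp26b1* was wide in both groups, with SDs of 0.74 in the *Ezh2* cko and 0.38 in controls (n = 3 each), while the highest SD among the other 11 probe sets was 0.27, in controls at the dimmest probe set of *Aldh1a3*. The neural crest and neural progenitor markers, like the neuron markers, ordered the arrays of each group as *Cyp26b1* did. The mean of 10 progenitor markers was -0.06, 0.01 and 0.16 in *Ezh2* cko replicates 1, 2 and 3 and -0.10, -0.03 and 0.00 in control replicates 1, 2 and 3. Mesenchyme, macrophage, endothelial and erythroid markers, and eye and optic genes, did not give this order in both groups. The mesenchyme mean was -0.33, 0.03 and -0.03 in control replicates 1, 2 and 3. The mean of 10 endothelial markers was 0.13, 0.06 and -0.12 in *Ezh2* cko replicates 1, 2 and 3 and -0.10, 0.05 and -0.02 in control replicates 1, 2 and 3, and that of 9 erythroid markers was 0.08, -0.11 and -0.07 in the *Ezh2* cko and -0.16, 0.04 and 0.21 in controls.

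The 2 Crabp carriers differed in opposite directions, *Crabp1* by 0.19 and *Crabp2* by -0.35 on the log2 scale. Both missed the adjusted p of limma, and the difference between them was not tested.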
